A study of Mus musculus with 12 samples.

Results

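The interferon regulatory factor genes are a family of transcription factors. The 8 members described here were taken by name: Irf1, Irf2, Irf3, Irf4, Irf5, Irf7, Irf8 and Irf9. They are 8 of the 54532 genes counted in mammary tumors of MMTV-Neu mice, and 7 of them, all but Irf4, were among the 15504 genes with enough reads to be tested. These mice carry a transgene for Neu, the rodent HER2, without an activating mutation. Its MMTV promoter (from the mouse mammary tumor virus) is active in mammary epithelium, from which the tumors start, and the mice keep their immune system. Female mice with a tumor of about the same size were given control diet, MSU-42011 or bexarotene, each agonist at 100 mg/kg diet, for 10 days, with 4 tumors per group. MSU-42011 and bexarotene both activate the retinoid X receptor (RXR), a nuclear receptor that pairs with other nuclear receptors to control transcription, and bexarotene is an approved drug. All mice, the control group included, carried the transgene and ate powdered chow mixed with the ethanol and coconut oil vehicle. The comparisons ask how each agonist differed from control diet, and how the agonists differed from each other, in the tumor transcriptome.

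Interferons are secreted when sensors of foreign nucleic acid switch on IRF3 and IRF7, which then turn on the interferon genes. Interferons in turn act through JAK kinases. IRF9 then binds DNA in a complex that includes STAT2, at the interferon-stimulated response element, and this complex raises Irf7 and many antiviral genes. IRF1 is induced by interferon gamma and activates antigen presentation genes, and IRF2 competes with it. IRF4, IRF5 and IRF8 are mostly proteins of blood cells, with IRF4 in activated lymphocytes, plasma cells and some myeloid cells, IRF5 in macrophages and B cells, and IRF8 in macrophages and dendritic cells. In tumors the family is known for its part in antigen presentation and in the states of the macrophages that enter the tissue.

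The promoters show which members carry the DNA letters that regulate genes of the interferon response. RefSeq promoters (GRCm38.p6), from 250 bases before to 50 bases after the start, were found for all 8 members, in 11 windows. Both strands were searched for GAAANNGAA, the paired core of the interferon-stimulated response element, and TTCNNNGAA, the gamma-activated sequence of genes induced by interferon gamma. GAAANNGAA was present in 8.56% and TTCNNNGAA in 8.30% of 32851 promoters of the same length, and TTCNNNGAA reads the same on both strands. Among the members, only Irf1, Irf2 and Irf8 held a match, and their windows are shown because they are the only ones of the 8 to do so. Capitals mark the matches, and no 2 of them overlap.
Irf1, chr11:53769894-53769962, + strand: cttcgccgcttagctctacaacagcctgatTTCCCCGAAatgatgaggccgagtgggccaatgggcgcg
Irf2, chr8:46739495-46739559, + strand: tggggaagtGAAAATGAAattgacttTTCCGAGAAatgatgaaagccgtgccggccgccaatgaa
Irf8, chr8:120736175-120736243, + strand: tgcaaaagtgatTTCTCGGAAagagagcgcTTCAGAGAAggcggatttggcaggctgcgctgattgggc

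The Irf1 match to TTCNNNGAA began 90 bases before the start. The matches of Irf8 to the same letters began 171 and 153 bases before the start, and that of Irf2 began 224 bases before it. Irf2 was the only member with a match to GAAANNGAA, which began 241 bases before the start. The windows of Irf3, Irf4, Irf5, Irf7 and Irf9 held neither set of letters, which says only that these letters are not in these windows. A match is a description of the letters, and binding was not measured in these tumors.

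Total counts ran from 16583413 to 25925027 per tumor. Across all genes, bexarotene replicate 1 stood apart from the other 11 tumors. Its median correlation with them was 0.915, against at least 0.961 for every other tumor, and on the first principal component, which held 33.6% of the variance, it lay at -115 while the others lay between -16.2 and 34.2. The summed normalized CPM (the reads of a gene as a share of the library, after scaling by the trimmed mean of M values) of 8 fibroblast markers were 11399 in this tumor and at most 926 elsewhere. For 10 macrophage markers the sums were 2389 in this tumor and at most 861 elsewhere, and for 6 markers of the tumor epithelium 2683 in this tumor and at least 3988 elsewhere. The epithelial markers Erbb2, Krt8, Krt18, Epcam and Cdh1 were read in every tumor, whereas Krt19 was at 0 in control replicate 4 and MSU-42011 replicate 3. Results are therefore given with and without bexarotene replicate 1 where it moves them. In RNA from whole tumors, fewer cells of a type and less RNA per cell cannot be told apart.

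The members fell into a group with high and a group with low expression. Levels of different genes were compared as FPKM, which divides by a length for each gene. That length was below the listed gene length, at 1046 against 3442 bases for Irf3 and 1183 against 7396 for Irf2. The order of the members depends on the lengths used. In control tumors, mean FPKM was 101 ± 49.9 (SD, n = 4) for Irf7, 89.5 ± 7.28 for Irf3, 55.4 ± 11.4 for Irf9, 50.6 ± 7.80 for Irf1 and 37.7 ± 4.42 for Irf2. Mean FPKM was 7.14 ± 2.03 for Irf8, 3.56 ± 1.20 for Irf5 and 0.0869 ± 0.0681 for Irf4 in the same tumors. The control values of Irf7 and Irf3 overlapped, as did those of Irf9 and Irf1 and those of Irf8 and Irf5, so that the order within these pairs lies inside the spread. Irf7, at 44.1 to 156, also overlapped Irf9 (39.4 to 65.1) and Irf1 (42.4 to 58.4). The other neighbours in this order did not overlap.

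The order differed in the agonist groups. Irf3 was first in the MSU-42011 group, with a mean FPKM of 91.6 ± 10.4 (SD, n = 4), followed by Irf7 at 80.2 ± 15.6, and their values overlapped. In the bexarotene group Irf3 was also first, at 101 ± 23.7, and Irf7 was second, at 52.0 ± 13.1. All 4 bexarotene tumors had more Irf3 than any of them had Irf7 on the FPKM scale, since Irf3 ran from 78.9 to 127 and Irf7 from 42.0 to 70.8. Behind them came Irf1 (mean 49.3), Irf9 (43.2) and Irf2 (40.5). From Irf7 down to Irf2, the bexarotene values of each gene overlapped those of the next.

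**Figure D1:**
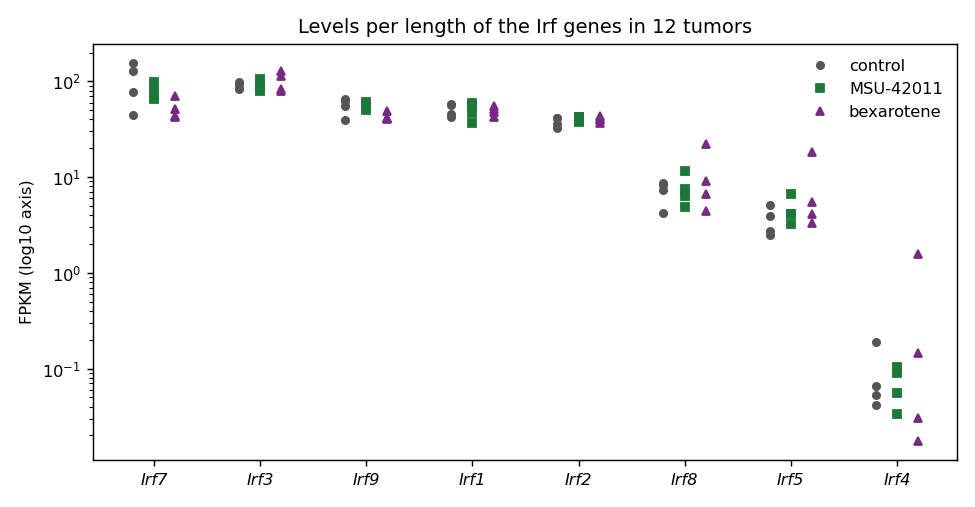
FPKM (log10 axis) of the 8 Irf genes in each of the 12 tumors, with circles for control, squares for MSU-42011 and triangles for bexarotene, 4 tumors per group. Irf7, Irf3, Irf9, Irf1 and Irf2 lie above 30 FPKM in every tumor, Irf8 and Irf5 lie between 2.49 and 22.3 FPKM, and Irf4 lies below 0.2 FPKM except in bexarotene replicate 1, where it is at 1.58.

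No gene of the 15504 passed the threshold of an adjusted p of 0.05 in the edgeR test in any comparison (0%), and so no Irf gene did. This held for each agonist set against control diet, for the agonists set against each other and for the test over all 3 diets at once. At an unadjusted p below 0.05, 309 genes (1.99%) differed between MSU-42011 and control, 998 (6.44%) between bexarotene and control, 612 (3.95%) between MSU-42011 and bexarotene and 657 (4.24%) among the 3 groups. DESeq2 called 1, 6, 25 and 5 genes in these tests at an adjusted p below 0.05, and none of them was an Irf gene. Of the 7 Irf genes tested, 0 differed between MSU-42011 and control at an unadjusted p below 0.05. Against control, bexarotene gave 2 Irf genes lower (Irf7 and Irf9, where the share over all genes was 1.96%) and 1 higher (Irf5, where it was 4.48%). Between the agonists 1 Irf gene differed, Irf9, and among the 3 groups 2 did, Irf7 and Irf9.

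**Figure D2:**
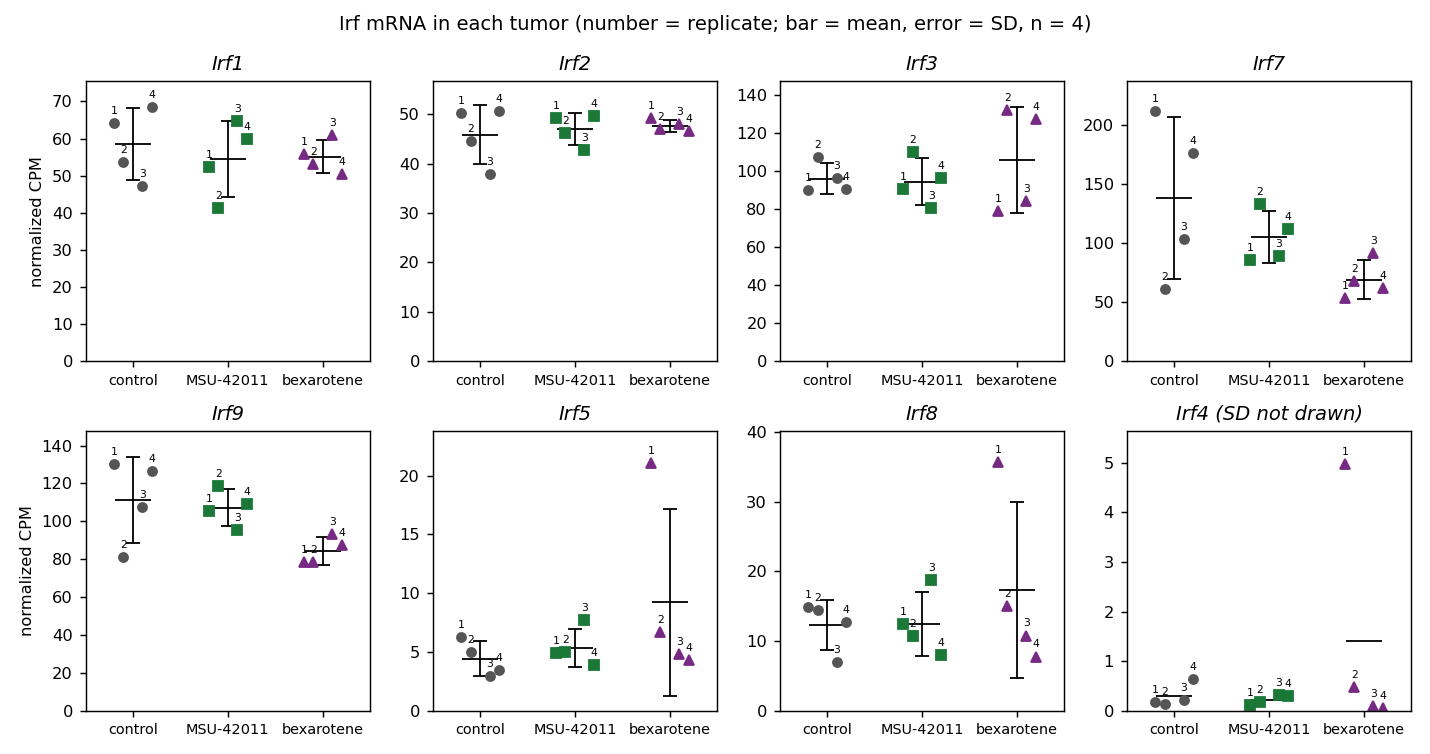
Normalized CPM of each Irf gene in each tumor by diet group, where the number beside a point is the replicate, the horizontal bar is the mean and the error bar is the SD (n = 4, not drawn for Irf4). The bexarotene values of Irf7 and Irf9 lie low, and bexarotene replicate 1 lies far above the other tumors for Irf5, Irf8 and Irf4.

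Irf7, the master regulator of type I interferon transcription (ENSMUSG00000025498, chr7:141262706-141266481, - strand), was the member with the smallest p against control. Its normalized CPM was 212, 61.5, 103 and 177 in control replicates 1 to 4, with a mean of 138 ± 68.3 (SD, n = 4). In the MSU-42011 group it was 85.8, 133, 89.4 and 112, with a mean of 105 ± 22.0. In the bexarotene group it was 53.4, 68.0, 91.8 and 62.2, with a mean of 68.8 ± 16.4. Control replicates 1 and 4 were above every other tumor, while control replicate 2 lay inside the bexarotene range, and the groups overlapped in each comparison with control.

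With bexarotene the mean of Irf7 was 0.498 of the control mean. The log2 difference from control was -1.01 (SE 0.32, 95% interval -1.71 to -0.30), with an unadjusted p of 0.00886 in the edgeR fit and an adjusted p of 0.762 over all 15504 genes. The exact permutation test of 4 against 4 tumors gave p = 0.114 (two-sided), where 0.0286 is the smallest p this design allows. Leaving out each tumor in turn, the log2 difference ran from -1.26 without control replicate 2 to -0.73 without control replicate 1, and it was -0.90 without bexarotene replicate 1.

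With MSU-42011 the mean of Irf7 was 0.760 of the control mean and the log2 difference was -0.40 (95% interval -1.09 to 0.30, adjusted p = 0.999861). This difference shrank to -0.12 without control replicate 1 and grew to -0.64 without control replicate 2. Between the agonists the log2 difference of Irf7 was 0.61, higher with MSU-42011 (95% interval -0.09 to 1.31, adjusted p = 0.997), and the exact permutation p was 0.0857. The interval includes 0 and also a difference of 1.31, so the data do not place the agonists apart or together for Irf7.

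Irf9, the DNA-binding partner of STAT2 (ENSMUSG00000002325, chr14:55603571-55610030, + strand), followed the tumors of Irf7. Its normalized CPM was 130, 81.0, 108 and 127 in the control tumors (mean 111 ± 22.6, SD, n = 4). It was 105, 119, 95.5 and 109 with MSU-42011 (mean 107 ± 9.64) and 78.5, 78.6, 93.3 and 87.2 with bexarotene (mean 84.4 ± 7.22). All 4 MSU-42011 tumors were above all 4 bexarotene tumors, and control replicate 2 was again the low control tumor, inside the bexarotene range.

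The difference of Irf9 between MSU-42011 and bexarotene was the only one of the 24 comparisons of an Irf gene between 2 groups in which the tumors did not overlap. Over all tested genes, 1.17% did not overlap in this comparison, against 1.97% between MSU-42011 and control and 2.03% between bexarotene and control. The log2 difference was 0.35, higher with MSU-42011 (SE 0.14, 95% interval 0.04 to 0.65, unadjusted p = 0.0306 and adjusted p = 0.997 in the edgeR fit). The exact permutation p was 0.0286, the smallest that 4 against 4 allows. The log2 difference stayed between 0.29 and 0.40 with any tumor left out.

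Against control, Irf9 was lower with bexarotene by a log2 difference of -0.40 (SE 0.14, 95% interval -0.71 to -0.09, unadjusted p = 0.0149, adjusted p = 0.762), and the exact permutation p was 0.0857. Leaving out a tumor gave values from -0.53 to -0.32. With MSU-42011 the log2 difference from control was -0.05 (95% interval -0.36 to 0.25), and it was above 0 on the FPKM scale and without control replicate 1 or control replicate 4.

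Irf3, the constitutive factor that the sensors activate (ENSMUSG00000003184, chr7:44997648-45002848, + strand), varied little in the control tumors. Its normalized CPM was 90.0, 108, 96.2 and 90.3 there (mean 96.0 ± 8.21, SD, n = 4), 90.4, 110, 80.4 and 96.3 with MSU-42011 (mean 94.3 ± 12.4) and 78.9, 132, 84.4 and 127 with bexarotene (mean 106 ± 27.9). The bexarotene tumors split, with replicates 2 and 4 above every other tumor of the study and replicate 1 the lowest of all. The log2 difference from control was 0.14 with bexarotene (95% interval -0.23 to 0.51), or 0.26 without bexarotene replicate 1 (95% interval -0.09 to 0.60) and 0.014 without bexarotene replicate 2, and -0.03 with MSU-42011 (95% interval -0.40 to 0.34), and the latter turned above 0 on the FPKM scale. Between the agonists it was -0.16 (95% interval -0.53 to 0.21), or -0.28 without bexarotene replicate 1 (95% interval -0.63 to 0.07), and it ran from -0.28 to -0.04 with a tumor left out.

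Irf1 (ENSMUSG00000018899, chr11:53770014-53778374, + strand), the activator induced by interferon gamma, was at 64.3, 53.6, 47.3 and 68.6 normalized CPM in the control tumors, 52.2, 41.4, 64.8 and 60.0 with MSU-42011 and 55.9, 53.2, 60.9 and 50.4 with bexarotene. The means were 58.4 ± 9.72, 54.6 ± 10.2 and 55.1 ± 4.46 (SD, n = 4 each), and the 3 groups overlapped throughout. The log2 difference from control was -0.10 with MSU-42011 (95% interval -0.43 to 0.23) and -0.09 with bexarotene (95% interval -0.42 to 0.25). Between the agonists it was -0.01 (95% interval -0.34 to 0.32), so that a difference beyond 0.34 on the log2 scale lies outside the interval.

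Irf2 (ENSMUSG00000031627, chr8:46739732-46847458, + strand), which competes with Irf1 for its sites, had the tightest values of the family in both agonist groups. It was at 50.3, 44.6, 37.9 and 50.6 normalized CPM in the control tumors, 49.3, 46.2, 42.7 and 49.7 with MSU-42011 and 49.3, 46.9, 47.9 and 46.6 with bexarotene. In the bexarotene group its coefficient of variation was 2.51%, and 99.7% of the tested genes had a larger one in those tumors. The log2 difference was 0.03 with MSU-42011 (95% interval -0.19 to 0.26) and 0.06 with bexarotene (95% interval -0.17 to 0.28) against control, and -0.02 between the agonists (95% interval -0.25 to 0.20). Irf7 had a coefficient of variation of 49.4% in the control tumors, the largest of the 7 tested members there, which 14.0% of tested genes exceeded.

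Irf5 (ENSMUSG00000029771, chr6:29526625-29541871, + strand), a factor of macrophages and B cells, was set apart by a single tumor. Its normalized CPM was 6.29, 5.02, 2.99 and 3.45 in the control tumors (mean 4.44 ± 1.51, SD, n = 4) and 4.89, 4.97, 7.69 and 3.86 with MSU-42011 (mean 5.35 ± 1.64). With bexarotene it was 21.1 in replicate 1 and 6.68, 4.84 and 4.29 in the others, for a mean of 9.22 ± 7.97, or 5.27 ± 1.25 (n = 3) without replicate 1. The log2 difference between bexarotene and control was 1.06 (95% interval 0.01 to 2.11, unadjusted p = 0.0483, adjusted p = 0.773 in the edgeR fit). Without bexarotene replicate 1 it was 0.25 (95% interval -0.45 to 0.95). The exact permutation p over the 8 tumors was 0.257. Against control, the MSU-42011 difference was 0.27 (95% interval -0.78 to 1.32), and between the agonists the difference was -0.79 (95% interval -1.83 to 0.26), or 0.02 without that tumor.

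Irf8 (ENSMUSG00000041515, chr8:120736358-120756694, + strand), which macrophages and dendritic cells need, showed the same tumor. Its normalized CPM was 15.0, 14.4, 7.0 and 12.8 in the control tumors (mean 12.3 ± 3.65, SD, n = 4), 12.4, 10.7, 18.7 and 7.96 with MSU-42011 (mean 12.5 ± 4.55) and 35.6, 15.1, 10.8 and 7.79 with bexarotene (mean 17.3 ± 12.6). Apart from bexarotene replicate 1, the ranges of the 3 groups overlapped. The log2 difference between bexarotene and control was 0.50 (95% interval -0.45 to 1.45), and -0.13 without replicate 1. With MSU-42011 it was 0.02 (95% interval -0.93 to 0.97), and between the agonists it was -0.48 (95% interval -1.43 to 0.47), or 0.15 without bexarotene replicate 1.

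Irf4 (ENSMUSG00000021356, chr13:30749226-30766976, + strand), the factor of activated lymphocytes and plasma cells, was close to unread, with 191 reads in all 12 tumors, of which 135 came from bexarotene replicate 1. The counts were 3, 3, 4 and 15 in the control tumors, 2, 3, 6 and 7 with MSU-42011 and 135, 10, 2 and 1 with bexarotene. Several tumors lie at or under 3 counts, so no difference between the diets could be read at this depth. Fitted log2 differences, which need a fit without the filter, are given only with the processing alternatives, where they turn direction with single tumors. The markers of B cells were as scarce, with at most 5 reads of Ms4a1 and 6 of Pax5 in any tumor.

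**Figure D3:**
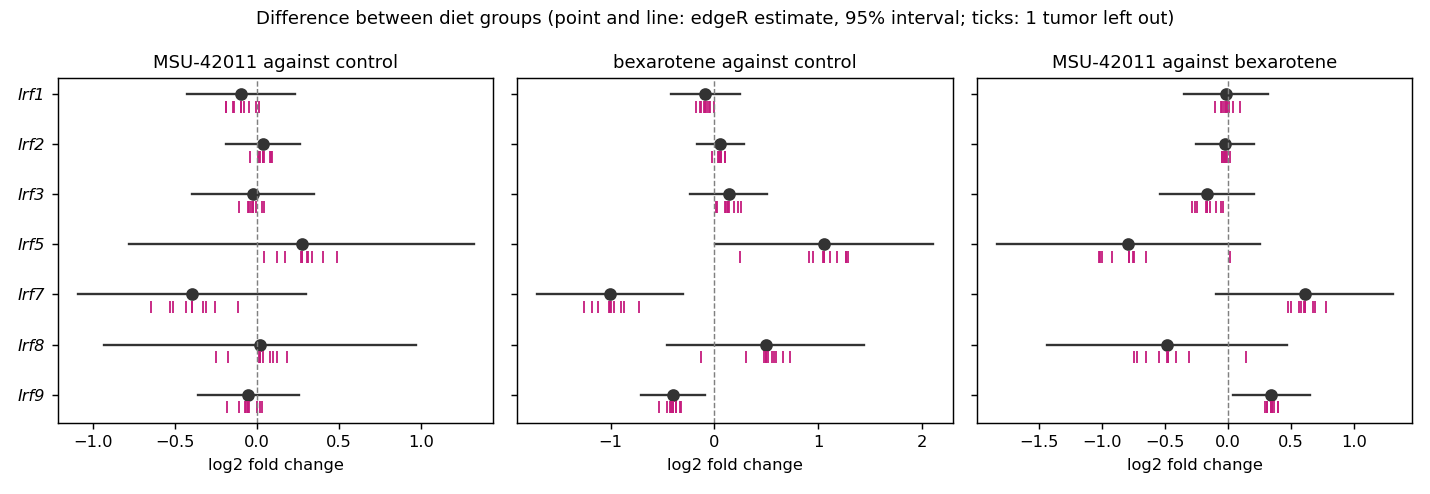
Log2 fold change of the 7 tested Irf genes in the 3 comparisons, where points and lines are the edgeR estimates with 95% intervals and the ticks below each are the estimates with 1 tumor left out. The bexarotene intervals of Irf7 (-1.71 to -0.30) and Irf9 (-0.71 to -0.09) lie below 0, and the Irf5 estimate moves from 1.06 to 0.25 without bexarotene replicate 1.

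Across the 12 tumors the members formed 2 pairs with a high r, which is given as a description over tumors that share their diets and library depths. Irf7 and Irf9 had a Pearson's r of 0.953 (Spearman's rho 0.951) on the log2 CPM scale, 0.944 without bexarotene replicate 1 and 0.934 without control replicates 1 and 4, the tumors farthest from the median of Irf7. With each group's mean removed, so that no difference between diets enters, r was 0.941. Irf5 and Irf8 had an r of 0.915 (rho 0.867), which was 0.810 without bexarotene replicate 1. It was 0.732 without bexarotene replicate 1 and control replicate 3, the tumors farthest from the median of Irf5. With the group means removed and all 12 tumors kept, r was 0.946. Over all 12 tumors the highest r of any other pair was 0.42, for Irf1 and Irf2, and the lowest was -0.54, for Irf1 and Irf3.

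**Figure D4:**
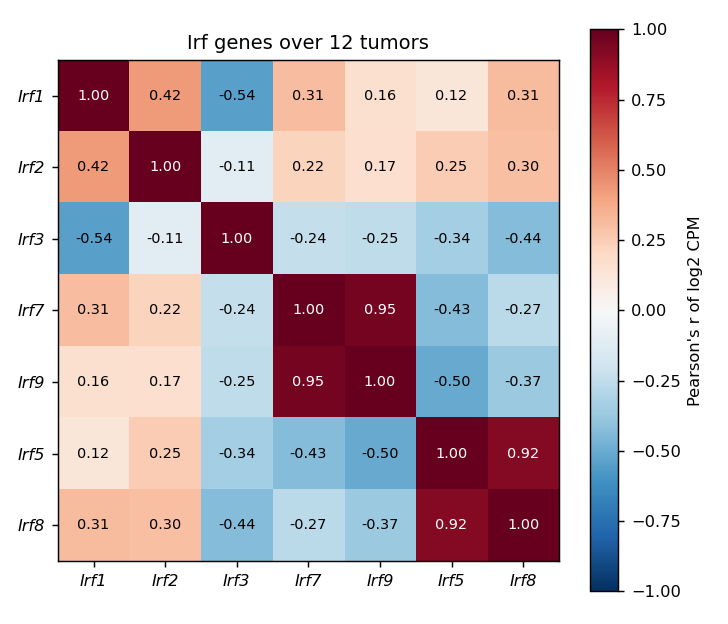
Pearson's r of log2 CPM over the 12 tumors for each pair of the 7 tested Irf genes, with red for positive and blue for negative values. Irf7 with Irf9 (0.95) and Irf5 with Irf8 (0.92) stand out, and the remaining pairs lie between -0.54 and 0.42.

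The genes most like each member over the 12 tumors were found among all tested genes. For Irf7 they were Oas1a, which makes the activator of RNase L (r = 0.969, rho 0.972), Irf9 (r = 0.953) and Isg15, a ubiquitin-like protein (r = 0.944). For Irf9 they were Irf7, Oas1a (r = 0.950) and Ifi44 (r = 0.921). Oas1a was at 87.9, 34.9, 62.2 and 75.2 normalized CPM in control replicates 1 to 4 and between 34.7 and 52.4 with bexarotene, with the same low control tumor as Irf7. For Irf8 they were Pkib (r = 0.982) and the complement genes C1qb (r = 0.978) and C1qc (r = 0.976), and C1qb was at 292 in bexarotene replicate 1 against 31.9 to 105 in all others. For Irf5 they were Fbln5 (r = 0.983), the kinase gene Syk (r = 0.974) and Rac2 (r = 0.973), and without bexarotene replicate 1 these values were 0.948, 0.911 and 0.903.

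The remaining members had other neighbours. For Irf3 they were Abhd11 (r = 0.959), Polr2j, a subunit of RNA polymerase II (r = 0.955), and Mtrf1l (r = 0.936). For Irf2 they were Rbl1 (r = 0.887), Zfp266 (r = 0.869) and Smim15 (r = 0.861), and for Irf1 Lrrc8b (r = 0.868), Camk2b (r = 0.866) and Gm30191 (r = 0.863). Each of these is the highest of the correlations with all other tested genes over 12 points, and the values for Irf1 dropped to between 0.767 and 0.774 without MSU-42011 replicate 2.

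The genes around the members in the interferon pathway were taken from lists by role. Of the interferon genes themselves, the 21 in the table were read so rarely that none could be tested. The largest count in a tumor was 8, for Ifnz, with at most 6 for Ifng and 1 for Ifnb1. Interferon mRNA was thus below the reach of these libraries, which is a statement on depth and not on absence.

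Among 22 genes of sensors and their adaptors, 9 were higher and 13 lower with bexarotene than with control, with a median log2 difference of -0.04 against 0.03 over all tested genes. At an unadjusted p below 0.05, 2 were lower, where the share over all tested genes was 1.96%. They were Dhx58, a helicase that modulates RNA sensing (-0.51, SE 0.19, adjusted p = 0.762), and Ifih1, the MDA5 sensor (-0.37, SE 0.17, adjusted p = 0.771). Without bexarotene replicate 1 the list had 6 genes higher and 16 lower, and 0 at an unadjusted p below 0.05, while the log2 differences of Dhx58 (-0.44, SE 0.20) and Ifih1 (-0.37, SE 0.19) were of like size, and without control replicate 1 it had 12 higher and 10 lower. With MSU-42011, 11 were higher and 11 lower. Irf3 ran against this list over the tumors, with an r of -0.885 between Irf3 and the summed CPM of the sensor genes, and -0.889 without bexarotene replicate 1. It also ran against the receptor and JAK-STAT genes described next (r = -0.801, and -0.768 without that tumor). Without bexarotene replicates 2 and 4, the tumors farthest from the median of Irf3, r was -0.762 for the sensors and -0.849 for the receptors.

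Of the 11 receptor and JAK-STAT genes, 4 were higher and 7 lower with bexarotene than with control, and the median log2 difference was -0.01. Stat2, which binds IRF9, was between 31.7 and 68.3 normalized CPM in the control tumors and between 39.4 and 59.6 with bexarotene, so that these groups overlapped. Il10rb, a receptor chain for interferon lambda, was higher with bexarotene by 0.34 (SE 0.13, unadjusted p = 0.0256, adjusted p = 0.762). Of 11 negative regulators, Usp18 and Trim21 were lower with bexarotene at an unadjusted p below 0.05, where the share over all genes was 1.96%. The log2 differences were -0.88 (SE 0.39) for Usp18, which blocks the type I receptor, and -0.39 (SE 0.18) for Trim21 (adjusted p = 0.770 for both). Without bexarotene replicate 1 none of these 3 genes had an unadjusted p below 0.05, with log2 differences of 0.31 (SE 0.15) for Il10rb, -0.81 (SE 0.43) for Usp18 and -0.41 (SE 0.20) for Trim21. The values of Il10rb did not overlap between bexarotene (52.2 to 61.4 normalized CPM) and control (35.8 to 50.2). Over all tested genes, 2.03% did not overlap in this comparison, and Il10rb was not the only listed gene among them.

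The 30 type I interferon targets lay lower with bexarotene, as Irf7 and Irf9 did. Of the 30, 28 were lower and 2 higher than in control, with a median log2 difference of -0.51 against 0.03 over all genes. At an unadjusted p below 0.05, 8 were lower and 0 higher, where the shares over all tested genes were 1.96% and 4.48%. None passed the adjusted threshold. Cmpk2 was lower by -0.67 on the log2 scale (SE 0.18), Ifit1, which binds viral RNA, by -1.02 (SE 0.35) and Ifit3b by -1.53 (SE 0.56), with an adjusted p of 0.762 each. Without control replicate 1 the count at an unadjusted p below 0.05 was 1 and without control replicate 2 it was 18, with medians of -0.33 and -0.71. Leaving out control replicate 4 gave 3, bexarotene replicate 4 gave 4 and bexarotene replicate 2 gave 5, and leaving out bexarotene replicate 1 kept it at 8. Over all genes, the number lower was 228 of 15893 without control replicate 1, 232 of 15741 without control replicate 2 and 272 of 15823 without control replicate 4. It was 350 of 15972 without bexarotene replicate 4, 158 of 15702 without bexarotene replicate 2 and 273 of 15619 without bexarotene replicate 1.

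With MSU-42011, 25 of the 30 type I targets were lower than in control, with a median of -0.17 against 0.002 over all genes. At an unadjusted p below 0.05 there were 0, where the share over all genes was 1.99%. Without control replicate 1 the direction turned, with 17 of the 30 higher and a median of 0.01. Without control replicate 2 the median was -0.38, with 5 lower at an unadjusted p below 0.05, against 117 of 15741 over all genes. Between the agonists 27 of the 30 were higher with MSU-42011, with a median of 0.38 against -0.02 over all genes, and 1 had an unadjusted p below 0.05 (3.95% over all genes). This was Cmpk2, at 0.57 (SE 0.18, adjusted p = 0.997). The count was 6 without control replicate 2, 5 without bexarotene replicate 3 and 3 without bexarotene replicate 1, and 27 stayed the number higher in each. Over all genes, 643 of 15741, 1242 of 15777 and 479 of 15619 had such a p in these fits, in the same order. The comparisons with control share the 4 control tumors, and the comparison between the agonists shares a group with each.

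The summed CPM of the type I targets put the tumors in nearly the order of Irf7. The sum was 1642, 829, 1232 and 1704 in control replicates 1 to 4, from 1044 to 1361 with MSU-42011 and from 912 to 1160 with bexarotene. Over the 12 tumors r with this sum was 0.950 for Irf7 and 0.947 for Irf9, and 0.938 and 0.966 with the group means removed. For Irf3 it was -0.36, for Irf1 0.29 and for Irf8 -0.20.

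The 27 targets of type II interferon, of which 25 could be tested, lay lower too. Of the 25, 22 were lower with bexarotene than with control, with a median log2 difference of -0.40 against 0.03 over all genes. There were 6 at an unadjusted p below 0.05, where 1.96% of all genes were lower and 4.48% higher. They included Psmb10, an immunoproteasome subunit (-0.45, SE 0.14), and the interferon-induced GTPases Iigp1 (-1.38, SE 0.48) and Gbp3 (-0.91, SE 0.38), with an adjusted p of 0.762 each. The count was 1 without control replicate 4 and 12 without control replicate 2. It was 2 without control replicate 1 or bexarotene replicate 2 and 3 without bexarotene replicate 1. The numbers over all genes in these fits are those given above for the type I targets. With MSU-42011, 20 of the 25 were lower than in control, at a median of -0.17, but without control replicate 4 only 9 were lower and the median was 0.06. Irf1, which activates many of these genes, had an r of 0.514 with their sum, below those of Irf7 (0.887) and Irf9 (0.861). Markers of T and NK cells moved with them in part, since 7 of 7 tested markers were lower with bexarotene than with control, with a median of -0.43 (6 of 7 without bexarotene replicate 1). Their summed CPM was 7.86 to 18.0 in control and 8.15 to 10.1 with bexarotene, and r with Irf7 was 0.675 (rho 0.517). Without control replicates 1 and 4 it was 0.252, so the relation with Irf7 rests on those tumors. For Irf1 the r with these T and NK markers was 0.670 (rho 0.615). It was 0.790 without MSU-42011 replicate 2 and control replicate 4, the tumors farthest from the median of Irf1. The part of these cells in the result was not tested.

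**Figure D5:**
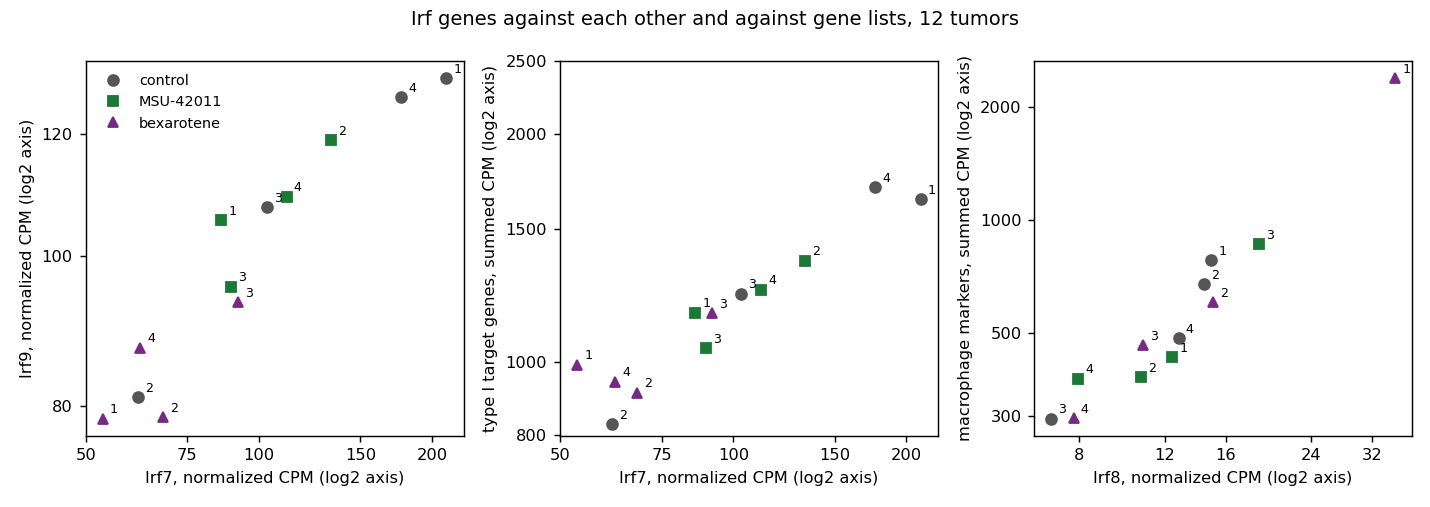
Irf9 against Irf7 (left), the summed type I interferon targets against Irf7 (middle) and the summed macrophage markers against Irf8 (right), in normalized CPM on log2 axes, with 1 point per tumor numbered by replicate. Control replicate 2 lies among the bexarotene tumors in the left plot and has the lowest summed targets of all tumors in the middle plot. Bexarotene replicate 1 lies far from the others in the right plot, where r is 0.971 with it and 0.938 without it.

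Irf8 and Irf5 went with the macrophage markers. The summed CPM of the 10 macrophage markers was 780, 674, 295 and 484 in the control tumors, 430, 381, 861 and 377 with MSU-42011 and 2389, 602, 464 and 296 with bexarotene. With this sum r was 0.971 for Irf8 (0.938 without bexarotene replicate 1) and 0.931 for Irf5 (0.795 without it). For Irf7 it was -0.27 and for Irf9 -0.38. Of the 7 dendritic cell markers, read at a summed CPM of 4.70 to 24.6, only 3 could be tested. The sum of the 7 had an r of 0.849 with Irf8 (0.790 without bexarotene replicate 1). The B cell markers, at a summed CPM of 0.981 to 5.06, had an r of 0.816 with Irf8 and 0.634 with Irf5. Without bexarotene replicate 1 these were 0.851 and 0.627. All 10 macrophage markers were higher with bexarotene than with control, at a median log2 difference of 0.76. Without bexarotene replicate 1 all 10 were lower, at a median of -0.23. Mrc1, the mannose receptor, had the smallest p of them (2.33, SE 0.96, unadjusted p = 0.0308, adjusted p = 0.762), and without bexarotene replicate 1 its log2 difference was -0.28 (SE 0.40). The fibroblast markers moved with the same tumor, as their sums above show, and had an r of 0.898 with Irf5 and 0.811 with Irf8, or 0.60 and 0.50 without it. The part of any of these cell types in the Irf5 and Irf8 values was not tested.

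The partner proteins of the family were listed as 9 genes. Of these, 8 could be tested, and 4 were higher and 4 lower with bexarotene than with control. Spi1, the PU.1 partner of IRF4 and IRF8, had a log2 difference of 0.66 with bexarotene (95% interval -0.48 to 1.80), which turned to -0.27 (SE 0.34) without bexarotene replicate 1, where it was at 50.1 normalized CPM against 6.95 to 18.2 in all other tumors. The summed CPM of the partners was mostly Jun and Junb, with control means of 103 and 104, against 33.0 for Ikzf1 and 13.1 for Spi1. It therefore says little about the scarcer partners. This sum had an r of -0.693 with Irf9, -0.566 with Irf7, 0.723 with Irf8 and 0.624 with Irf5 over the 12 tumors. Without bexarotene replicate 1 these values were -0.624, -0.464, 0.652 and 0.522. Batf was lower with MSU-42011 than with control by -1.50 (SE 0.65, unadjusted p = 0.0406, adjusted p = 0.999861). With a tumor left out its log2 difference ran from -1.81 to -0.99, and p was above 0.05 without control replicate 1 or 2 or MSU-42011 replicate 1, 3 or 4.

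Genes that share exon bases with a member can change its count where strand is not used in counting. The strand setting is not given in the sources used here. Irf5 shared 14.1% of its exon bases with Tnpo3 on the opposite strand, a gene with 17464 reads in all against 1634 for Irf5. Tnpo3 was at 67.2 normalized CPM in bexarotene replicate 1 and between 67.2 and 77.7 in the other tumors. What the shared bases did to the Irf5 counts was not tested. The share was 3.40% for Irf1 with Gm17334, 2.56% for Irf3 with Bcl2l12, 2.28% for Irf9 with Rnf31 on the same strand and 1.19% for Irf7 with Phrf1. No exon bases of Irf2 or Irf8 were shared, though both lie in overlapping gene models.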

How the data were processed

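RNA from 12 frozen tumor sections (4 per diet, grouped by label, each with its own tumor number) was enriched for poly(A). The authors deposited raw read counts and FPKM per gene. The submitters' processing notes name STAR 2.6.1d, featureCounts 1.5.0-p3 and DESeq2, and strand setting and build are not given in the sources used here. Coordinates matched GENCODE M21 (GRCm38) for 98.3% of genes, and exon overlaps were taken from it. Counts were fitted with edgeR 4.0.16 (R 4.3.3), with TMM scaling, filterByExpr, 1 mean per group over all 12 tumors, the quasi-likelihood F test and Benjamini-Hochberg adjustment over 15504 genes. Correlations used log2 CPM (prior count 2) and log2 of list sums plus 0.5. Alternatives were DESeq2 1.42.0, limma 3.58.1 on log2(FPKM + 1) and log2(FPKM + 0.1), other filters and scaling, robust estimation, 2 groups alone, a replicate block and leaving out each tumor. FPKM of the members divides by 1046 to 3295 bases, below their listed gene lengths. Scripts were tested on simulated data. Members and lists were chosen with earlier results of these data known. By rule the text names the members, genes that overlap them, the 3 nearest genes of each tested member and, from each list and comparison, genes among the 3 with the smallest p. Stat2, the B cell and interferon genes and the epithelial markers were named after their values were seen. Some items are not reported here. The edgeR p-values set a difference against the spread between tumors of the same diet, estimated over all tumors in the fit.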

Additional observations from a re-analysis of the deposited data

Results flagged for a closer look

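In 3 of the 24 groups of 4 tumors formed by 8 Irf genes and 3 diets, a tumor lay far from the other 3 by Dixon's 95% criterion for 4 values, which compares the gap to the nearest tumor with the whole range. Chance gives this in about 1 of 20 groups. Irf5 was at 21.1 normalized CPM in bexarotene replicate 1, with a gap of 0.858 of the range. Irf4 was at 4.98 in the same tumor, with a gap of 0.916. Irf4 was at 0.646 in control replicate 4, where the gap of 0.858 rests on 15 reads against 3 or 4 in the other control tumors.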

How the results depend on the processing

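No Irf gene passed an adjusted p of 0.05 under any setting, and the smallest was 0.254, for Irf7 between bexarotene and control in DESeq2. Over all genes the number called was 0 by edgeR, also with the replicate block, and DESeq2 called 1 gene between MSU-42011 and control, 6 between bexarotene and control, 25 between the agonists and 5 among the 3 groups. Leaving out a tumor gave 0 to 1 genes between bexarotene and control and 0 to 1 among the 3 groups. Same-numbered tumors did not deviate together (r from -0.352 to 0.349, above 0.1 in 4 of 12 pairs), so the numbers do not pair the tumors. With the replicate block the log2 difference was -0.95 for Irf7 and -0.39 for Irf9 between bexarotene and control.

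Of 480 recomputed log2 differences of Irf genes, 455 kept their direction and 25 turned. On log2(FPKM + 1) and log2(FPKM + 0.1), MSU-42011 against control was 0.030 and 0.031 for Irf3 and 0.027 and 0.028 for Irf9. Without a filter Irf1 between the agonists was 0.0068. With a tumor left out, the ranges that crossed 0 were, between MSU-42011 and control, -0.19 to 0.014 for Irf1, -0.046 to 0.088 for Irf2, -0.11 to 0.042 for Irf3, -0.61 to 0.37 for Irf4, -0.25 to 0.18 for Irf8 and -0.18 to 0.03 for Irf9. Between bexarotene and control they were -0.18 to 1.4e-05 for Irf1, -0.025 to 0.11 for Irf2, -0.47 to 2.95 for Irf4 and -0.13 to 0.73 for Irf8, and between MSU-42011 and bexarotene -0.10 to 0.10 for Irf1, -0.045 to 0.022 for Irf2, -2.96 to 0.095 for Irf4, -1.02 to 0.019 for Irf5 and -0.74 to 0.15 for Irf8. Irf4 was fitted without a filter, on nearly no reads outside bexarotene replicate 1, so these values are no estimate of a difference, and its leave-one-out fits were added after seeing the data. The ratio of group means was within the spread on FPKM in 15 of 16 cases, and the exception was Irf2 with bexarotene, at 1.07 of control on FPKM against 1.04 on normalized CPM. Depth limits Irf4 and the interferon genes, and a read count of 3 equals 0.111 to 0.184 CPM per tumor. Intervals cover only the spread between tumors of the same diet, estimated over all tumors in the fit.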
